A study of Mus musculus with 3 samples.

Results

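The ER folding and secretory machinery is taken here as a fixed list of 40 genes of the endoplasmic reticulum (ER). They were chosen by name from the 33696 genes counted, with earlier results of these data known, and each of the 40 was found once. Spleen cells of mice were counted by single-cell RNA sequencing from the 5′ end of transcripts, in 3 libraries with 1 library per group: MASH-Phe-free, MASH and Chow. MASH is metabolic dysfunction-associated steatohepatitis, the series title concerns phenylalanine, and the labels call each group a treatment without saying what was given. The series text describes C3H mice that received a high-fat and then a methionine- and choline-deficient diet and carried implanted HCA-1 liver tumours, but the labels of the spleens give only tissue and group. Diet, age, number of animals per library and tumour status of these spleens are not given in the sources used here. With 1 library per group there is no spread between animals, no difference between groups could be tested, and every interval given covers counting error only.

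Proteins made for secretion enter the ER through the Sec61 translocon, lose their signal peptide to the signal peptidase, and fold with the help of Hsp70- and Hsp90-type chaperones, lectin chaperones and disulfide isomerases. Chains that do not fold are returned to the cytosol and destroyed by ER-associated degradation (ERAD). A load of unfolded protein activates the sensors IRE1, PERK and ATF6, and the IRE1 product XBP1 drives many genes of this machinery. Plasma cells, which secrete antibody, are known for a large ER and for their need of XBP1.

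Levels are given as CPM: within a library, the unique molecular identifiers (UMIs) of a gene were added up across all cells of a class and expressed per 1000000 UMIs of those cells. Where 3 values stand in a row, they belong to the MASH-Phe-free, MASH and Chow libraries. CPM from 5′ tags are not per length, so a gene is set against itself in other cells and not against other genes. The libraries held 160115282 UMIs in 16778 barcodes (MASH-Phe-free), 152501471 UMIs in 19219 barcodes (MASH) and 138787602 UMIs in 16495 barcodes (Chow). Barcode sequences shared with another library numbered 179, 174 and 149, or 1.07%, 0.905% and 0.903%. Cells were clustered with the 40 members left out of the genes used, and clusters were named from marker genes that include none of them. The plasma-like class held 387, 262 and 304 cells with medians of 17321, 19294 and 17430 UMIs per cell, and the B-like class held 3798, 4757 and 5063 cells with medians of 7900, 8526 and 8314 UMIs. Jchain, the joining chain of polymeric antibody, stood at 37399, 34898 and 34934 CPM in plasma-like cells and at 17.1, 11.7 and 14.4 CPM in B-like cells. All 8 plasma markers, from which the class was named, had UMIs in the plasma-like cells of each library, and also in the B-like cells. Irf4, another of the 8, stood at 214, 220 and 289 CPM in plasma-like cells and at 103, 96.4 and 111 CPM in B-like cells.

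Promoters were examined for the letters of the ER stress response elements, to which ATF6 and XBP1 are known to bind. The RefSeq table (build GRCm38.p6, 250 bases before to 50 bases after each start) matched 32 of the 40 members. The element ERSE, written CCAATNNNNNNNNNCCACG and searched on both strands, was present for 9 of these 32 members, or 28.1%, and for 37 of all 27025 genes of the table, or 0.137%. Those 9 were Hspa5, Hsp90b1, Calr, Canx, Pdia6, Dnajc3, Creld2, Derl3 and Syvn1. The shorter ERSE-II, which is ATTGG, any 1 base and CCACG, was present for Herpud1 and Dnajb11 and for 12 of all genes, or 0.0444%, and shared no member with ERSE. The stretches around the matches are shown for 4 members that stand out in the plasma-like comparison or define the pathway, for Herpud1, which differs between libraries, and for Canx, which was not higher in plasma-like cells. Each is read 5′ to 3′ along the gene's own strand, and capitals mark the outer 5 bases at each end of a match. These bases appear as CCAAT and CCACG, as their reverse complements CGTGG and ATTGG, or in ERSE-II as ATTGG and CCACG.
Hspa5 at chr2:34772005-34772063 (+ strand, GRCm38.p6): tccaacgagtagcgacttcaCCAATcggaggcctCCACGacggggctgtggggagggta
Hsp90b1 at chr10:86705513-86705676 (− strand, GRCm38.p6): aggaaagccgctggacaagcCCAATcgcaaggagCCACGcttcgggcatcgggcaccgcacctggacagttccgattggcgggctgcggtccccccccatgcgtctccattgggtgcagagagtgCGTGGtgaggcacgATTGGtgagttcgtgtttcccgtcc
Creld2 at chr15:88819500-88819558 (+ strand, GRCm38.p6): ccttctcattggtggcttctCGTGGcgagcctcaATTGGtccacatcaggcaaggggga
Derl3 at chr10:75893222-75893280 (+ strand, GRCm38.p6): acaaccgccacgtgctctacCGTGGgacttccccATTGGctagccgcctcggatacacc
Herpud1 at chr8:94386357-94386407 (+ strand, GRCm38.p6): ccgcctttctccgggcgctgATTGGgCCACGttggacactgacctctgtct
Canx at chr11:50325780-50325838 (− strand, GRCm38.p6): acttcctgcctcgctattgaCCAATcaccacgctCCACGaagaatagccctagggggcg
The Hsp90b1 stretch holds 2 matches, 1 on each strand, and the others hold 1. The 8-base XBP1 core TGACGTGG was found for Txndc5 among the members and for 0.714% of all genes, and the 5 bases CCACG alone, which are contained in both ERSE forms, for 26 of 32 members and 35.5% of all genes. A match is a description of letters and not a site shown to be bound. The elements are named for the ER stress response, to which many members belong, so the contrast with all genes is not independent of the list. The 11 members with ERSE or ERSE-II had a median plasma-like over B-like ratio of 5.00, and the 21 matched members with neither had 4.09, both with members below 1 and above 50.

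As 1 sum, the 40 members made up 2.09% of UMIs in plasma-like cells of the MASH-Phe-free library, 2.05% in MASH and 1.98% in Chow. In no other class did the share reach 0.9%: the plasmacytoid dendritic-like cells (47, 28 and 32 cells) stood at 0.843%, 0.783% and 0.829%, B-like cells at 0.409%, 0.407% and 0.402%, and mature neutrophil-like cells at 0.192%, 0.149% and 0.178%. Antibody genes took up 57.9%, 61.2% and 57.8% of all UMIs in plasma-like cells and at most 1.53% in B-like cells, and they lower the CPM of everything else in a plasma-like cell. Of the UMIs outside antibody genes, the members held 4.95%, 5.30% and 4.68% in plasma-like cells, and 0.416%, 0.413% and 0.408% in B-like cells. Outside antibody UMIs the members that missed the 2-fold line on all UMIs have their ratio given on that scale too.

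**Figure D1:**
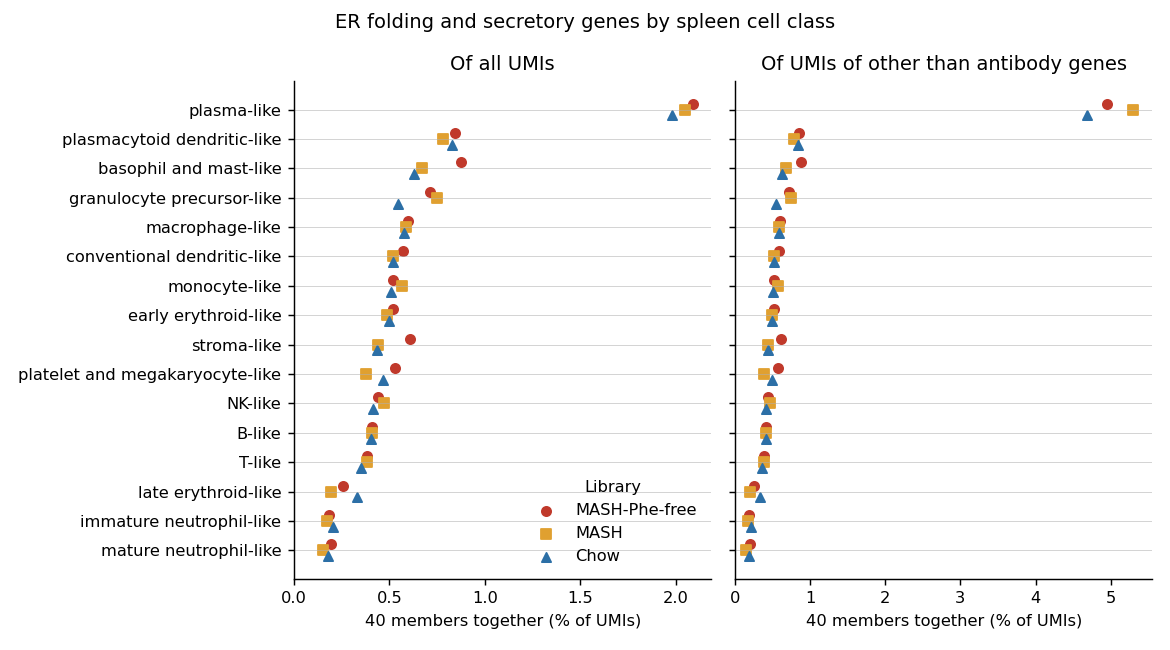
Share of UMIs held by the 40 members together in each named cell class (rows), per library (red circles MASH-Phe-free, orange squares MASH, blue triangles Chow), of all UMIs on the left and of UMIs outside antibody genes on the right. Plasma-like cells sit near 2% on the left and near 5% on the right in all 3 libraries, and mature and immature neutrophil-like cells are lowest.

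Plasma-like cells were then set against B-like cells of the same library, since B cells are their precursors. In all 3 libraries 34 of the 40 members were at least 2-fold higher in plasma-like cells with an interval that excluded 1, against 4.38% of the 7584 genes tested. By library these were 36 members in MASH-Phe-free (5.72% of all genes tested), 34 in MASH (4.99%) and 35 in Chow (5.56%). The median member log2 ratio was 1.87, 1.92 and 1.96, beside medians of −1.05, −1.14 and −1.05 over all genes tested. On the same scale 69.3% of all genes were at least 2-fold lower in plasma-like cells in all 3 libraries, and 0 members were. With antibody UMIs left out of the totals 38 of 40 members were at least 2-fold higher in all 3 libraries, against 9.72% of 8198 genes. The exceptions were then Canx and Syvn1. Both classes were built by clustering these same cells, so the ratios describe the classes and carry no test. The members were chosen with earlier results of these data known, so their excess over all genes is not independent of that choice.

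Among the 9 chaperones and co-chaperones all were at least 2-fold higher, with a group median of 5.12-fold. Creld2, an ER protein with isomerase activity that is induced by ER stress, stood at 436, 524 and 448 CPM in plasma-like cells of MASH-Phe-free, MASH and Chow, against 24.2, 22.2 and 23.3 CPM in B-like cells. Its ratios were 18.0 (16.7 to 19.5), 23.6 (22.0 to 25.4) and 19.2 (17.9 to 20.6), and the 2 classes did not overlap. Sdf2l1, a partner of the ER Hsp70 cycle, had 336, 309 and 304 CPM in plasma-like and 24.0, 23.7 and 22.8 CPM in B-like cells. Hsp90b1, the ER Hsp90 known as GRP94, reached 3120, 2997 and 2535 CPM in plasma-like cells, against 347, 353 and 361 CPM in B-like cells, or 8.99-, 8.48- and 7.01-fold. Manf, a secreted ER stress protein, was 5.46- to 6.12-fold higher and Dnajc3, an ER co-chaperone that also restrains PERK, 4.65- to 5.32-fold. Hspa5, the ER Hsp70 known as BiP and GRP78, was nearest to 1 in this group: 805, 788 and 794 CPM in plasma-like and 352, 340 and 341 CPM in B-like cells, a ratio of 2.28, 2.32 and 2.33. The co-chaperones Dnajb9 and Dnajb11 and the nucleotide exchange factor Hyou1 lay between, with median ratios of 2.81, 2.68 and 3.43.

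The lectin chaperones hold glycoproteins during folding, and they went apart. Calr, soluble calreticulin, stood at 539, 508 and 481 CPM in plasma-like cells and 181, 194 and 173 CPM in B-like cells, a median of 2.77-fold. Canx, membrane-bound calnexin, had 121, 108 and 121 CPM in plasma-like cells and 135, 143 and 144 CPM in B-like cells, with ratios of 0.893, 0.752 and 0.842 whose intervals all lay below 1. Outside antibody UMIs its ratio was 1.97 as a median.

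The 5 disulfide isomerases form and reshuffle the bonds that hold antibody chains together. Txndc5 led them with 1365, 1459 and 1456 CPM in plasma-like cells, against 89.9, 97.4 and 89.5 CPM in B-like cells, or 15.2-fold as a median. Pdia6 was 6.37- to 7.80-fold and Pdia4 3.96- to 4.87-fold higher in plasma-like cells. P4hb, the founding member of the family, had a median ratio of 2.40. Pdia3, which works with the lectin chaperones, lay at 414, 398 and 405 CPM in plasma-like and 206, 207 and 197 CPM in B-like cells and missed the 2-fold line with 1.93 in MASH. Outside antibody UMIs its ratios were 4.70 to 4.89.

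The B-lineage helpers differ in how much B-like cells already carry. Mzb1, a helper of GRP94 in B cells, reached 3609, 3563 and 3179 CPM in plasma-like cells and 522, 480 and 448 CPM in B-like cells, and was 9.68, 10.2 and 9.72 CPM in T-like cells. Fkbp11, a prolyl isomerase, had 180, 186 and 162 CPM in plasma-like cells and only 3.57, 3.67 and 4.68 CPM in B-like cells, a ratio of 50.3, 50.7 and 34.5. With every cell thinned to 2000 UMIs, Mzb1 was detected in 92.4%, 95.9% and 95.6% of plasma-like cells, in 59.0%, 54.8% and 54.5% of B-like cells and in 0.894%, 0.822% and 1.16% of T-like cells. Unthinned, these shares were 96.9%, 97.7% and 98.4% of plasma-like, 87.7%, 87.6% and 86.3% of B-like, and 2.29%, 3.02% and 3.98% of T-like cells. Fkbp11 was detected in 19.2%, 24.0% and 20.1% of thinned plasma-like cells (54.5%, 60.7% and 55.3% unthinned) and in 0.675%, 0.905% and 0.909% of thinned B-like cells (2.47%, 2.77% and 3.24% unthinned). In T-like cells, which should lack it, the unthinned Fkbp11 shares were 0.345%, 0.451% and 0.459%. Thinning left out 18, 20 and 30 plasma-like cells and 96, 115 and 115 B-like cells.

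ERAD held both the highest and some of the lowest ratios of the list. Derl3, a derlin of the retrotranslocation channel, had 265, 300 and 300 CPM in plasma-like cells and 4.72, 5.48 and 3.73 CPM in B-like cells, a ratio of 56.1 (47.7 to 66.4), 54.8 (47.9 to 62.9) and 80.4 (68.7 to 94.6). Its relatives did not follow: Derl1 had a median ratio of 2.20, and Derl2 stood at 30.2, 26.3 and 34.1 CPM in plasma-like and 35.2, 33.0 and 37.1 CPM in B-like cells. Sel1l and Syvn1 form the HRD1 ubiquitin ligase complex and also differed from each other. Sel1l, the adaptor, had 490, 454 and 427 CPM in plasma-like and 43.5, 43.4 and 48.2 CPM in B-like cells, whereas Syvn1, the ligase itself, had 69.7, 73.8 and 82.6 CPM in plasma-like and 86.7, 84.2 and 84.2 CPM in B-like cells. Outside antibody UMIs the ratios of Derl2 were 2.01 to 2.15 and those of Syvn1 1.88 to 2.29. The mannosidase-like proteins Edem1 and Edem2, which hand glycoproteins to degradation, had median ratios of 6.65 and 6.85, and Edem3 one of 1.66, which was 3.90 outside antibody UMIs. Herpud1, a membrane scaffold of ERAD, was 5.00-, 4.39- and 7.57-fold higher in plasma-like cells.

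Of the 7 translocon genes, 6 passed the 2-fold line in every library. Ssr4, the delta subunit of the translocon-associated protein complex, stood at 1146, 1161 and 1069 CPM in plasma-like and 147, 129 and 132 CPM in B-like cells, or 7.82- to 9.01-fold. The other Ssr genes had medians of 2.10 (Ssr1), 3.11 (Ssr2) and 3.18 (Ssr3), so the subunits of this complex did not differ alike between the classes. The channel genes Sec61b, Sec61a1 and Sec61g had medians of 3.23, 2.69 and 1.89, and Sec61g, which missed the line, 4.41 outside antibody UMIs. All 4 signal peptidase genes among the members passed, within the narrow range of 3.75 (Spcs2) to 6.21 (Spcs1). Sec11c, a catalytic subunit, stood at 900, 811 and 806 CPM in plasma-like and 166, 162 and 150 CPM in B-like cells. Sec11a, a signal peptidase gene that is not a member, had a median ratio of 0.597 (0.503 to 0.704 over libraries) on the scale of all UMIs. Both transcription regulators passed: Creb3l2, a membrane-bound factor that is cut and released from the secretory pathway, had 99.2, 89.7 and 104 CPM in plasma-like and 7.17, 7.70 and 7.91 CPM in B-like cells, and Ell2, an elongation factor that favours the secreted form of the heavy chain, 258, 254 and 288 CPM in plasma-like and 63.8, 61.1 and 64.5 CPM in B-like cells.

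**Figure D2:**
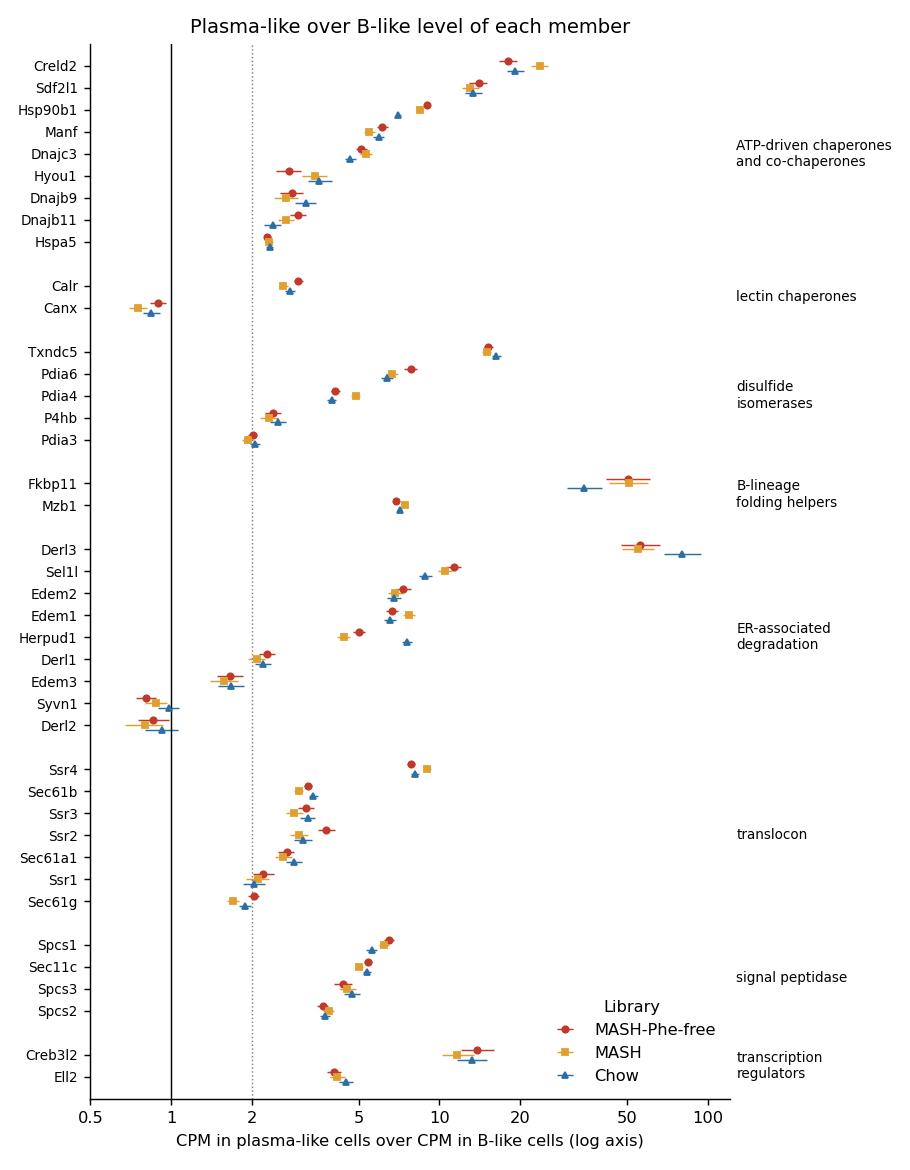
Ratio of CPM in plasma-like cells to CPM in B-like cells for each of the 40 members (rows, grouped by role), per library, on a log axis with exact 95% intervals of counting error. The solid line is 1 and the dotted line 2; Derl3 and Fkbp11 lie farthest right, while Canx, Syvn1 and Derl2 lie left of 1 in all 3 libraries.

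Across 16 named classes, with eosinophil-like cells not used, the members were ordered by their mean CPM over the 3 libraries. Plasma-like cells were highest for 30 of 40 members, and for 25 of these the 3 plasma-like values did not overlap those of the next class. The next class was most often the plasmacytoid dendritic-like one, for 15 members. The 5 with overlap were Hyou1, Sec61a1 and Sec61b with the plasmacytoid dendritic-like class, Calr with macrophage-like and Ssr3 with monocyte-like cells. Without antibody UMIs in the totals, a step that raises every other gene in plasma-like cells, these cells were highest for 39 members, all but Canx. The share of all genes that are highest in plasma-like cells is not given here on either scale, so these counts have no background beside them. Plasma-like cells made up 2.13% of named cells and 5.33% of their UMIs, yet held 88.0% of all Derl3 UMIs of named cells, 76.7% of Fkbp11, 55.1% of Txndc5, 54.8% of Mzb1 and 50.7% of Creld2, and only 3.35% of Canx.

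The 10 members with their highest CPM elsewhere were spread over 9 classes. Canx was highest in macrophage-like cells at 446 CPM (435 to 459 over libraries) and next in early erythroid-like cells at 379 CPM, and stood 13th of the 16 in plasma-like cells. Sec61g was highest in late erythroid-like cells at 698 CPM (554 to 785), which rest on 47, 432 and 11 cells, and next in early erythroid-like cells at 446 CPM. P4hb was highest in granulocyte precursor-like cells (350, 45 and 133 cells) at 345 CPM. Ssr1 was highest in plasmacytoid dendritic-like cells at 139 CPM, and Ssr2 in early erythroid-like cells at 183 CPM, where its range overlapped the plasma-like one. Pdia3 and Edem3 were highest in basophil and mast-like cells, Derl1 in platelet- and megakaryocyte-like cells, Derl2 in NK-like cells and Syvn1 in B-like cells at 85.0 CPM, just above its 75.4 CPM in plasma-like cells. Mature neutrophil-like cells were the lowest class for Hsp90b1 (43.2 CPM), Manf (7.27 CPM) and Txndc5 (4.62 CPM), among others.

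Within the B-like class, subsets were set against follicular B-like cells (1074, 1379 and 1580 cells) at a 1.5-fold line. Marginal zone B-like cells (1414, 1449 and 1845) had 2 of 37 tested members higher in all 3 libraries, against 4.21% of all genes. B1-like cells (385, 463 and 510) had 4 of 38, against 4.17%, germinal centre B-like cells (96, 81 and 82) 3 of 37, against 3.95%, and transitional B-like cells (373, 607 and 476) 3 of 37, against 5.39%. These counts are of a few genes each. Edem1 was higher in each of the 4 subsets, at 66.0 to 86.6 CPM against 36.3 to 38.9 CPM in follicular B-like cells. Pdia4 stood at 187, 176 and 203 CPM in marginal zone B-like and 190, 204 and 230 CPM in B1-like cells, against 74.9, 70.6 and 88.2 CPM in follicular B-like cells. Creb3l2 was 7.43- to 8.96-fold higher in B1-like cells, with 30.7, 28.3 and 28.7 CPM, and Mzb1 1.82- to 1.88-fold. Txndc5 differed in direction between subsets, at 40.5, 42.0 and 39.8 CPM in marginal zone B-like cells and 189, 275 and 193 CPM in germinal centre B-like cells, against 102, 109 and 114 CPM in follicular B-like cells.

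Plasma-like cells were divided into 6 parts by clustering them alone, again without the members. Part 5, led by cell cycle genes such as Ube2c and Top2a and by Ighe, held 53, 33 and 37 cells with a median of 37123 UMIs over all libraries. It was set against part 1, chosen for the highest antibody share, which held 147, 99 and 106 cells with a median of 5208 UMIs. The leading genes of part 1 included the neutrophil genes Ngp, S100a8 and S100a9, and the neutrophil markers summed to 25.2 CPM in part 5 and 117 CPM in part 1 over all libraries; their part in the comparison was not tested. Antibody genes took 36.3%, 48.7% and 42.9% of UMIs in part 5 and 68.8%, 69.3% and 67.4% in part 1. The members took 4.16%, 3.69% and 3.71% of UMIs in part 5 and 1.67%, 1.66% and 1.64% in part 1. Of the UMIs outside antibody genes, they took 6.53%, 7.19% and 6.49% in part 5 and 5.34%, 5.42% and 5.03% in part 1, a smaller gap than on the scale of all UMIs. Part 6 had nearly the antibody share of part 1 over all libraries, 68.4% against 68.5%. Its median of 40850 UMIs was closer to that of part 5. There the members took 4.29%, 5.13% and 3.95% of the UMIs outside antibody genes. Part 6 was not set against part 5 gene by gene.

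At the 2-fold line 23 of 40 members were higher in part 5 than in part 1 in all 3 libraries, but 38.8% of all 4358 genes tested were too. The median member log2 ratio was 1.28, 1.23 and 1.35, and that of all genes 1.09, 0.78 and 0.93. Outside antibody UMIs the median ratio of the members was 1.44, with 25 of 40 members above 1 and 6 below 1 in all 3 libraries. Over the 4242 genes tested outside antibody genes the median was 1.41, with 55.3% above 1 and 9.48% below 1, so the members lay near the background of this comparison. Ssr2 was farthest, with 591, 452 and 451 CPM in part 5 and 80.0, 78.4 and 68.2 CPM in part 1. Hsp90b1 reached 8406, 6570 and 6220 CPM in part 5, against 2298, 2479 and 2074 CPM in part 1. Herpud1 went the other way, with 250, 220 and 381 CPM in part 5 and 440, 247 and 679 CPM in part 1. Parts 3 and 4, led by neutrophil genes and by B-cell genes, held 33 and 51 of the 953 cells and had the lowest member shares outside antibody UMIs, 3.08% and 3.32% over all libraries, against 6.67% in part 5.

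**Figure D3:**
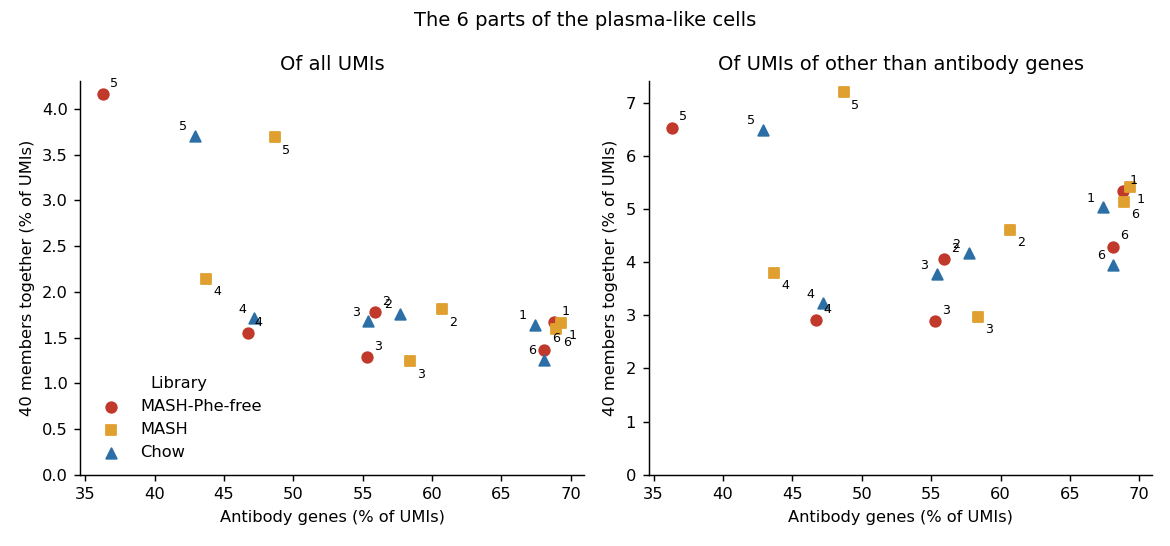
Share of UMIs held by the 40 members (vertical) against the share held by antibody genes (horizontal) in each of the 6 parts of the plasma-like cells, 1 point per part and library with the part's number beside it. Part 5 is highest in every library on both panels, and on the right the other parts lie between 2.89% and 5.42%.

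Cells whose leading heavy chain was Ighm numbered 346, 250 and 283, and switched cells 41, 12 and 20. The members took 5.79%, 7.74% and 5.11% of non-antibody UMIs in switched cells and 4.76%, 5.11% and 4.64% in Ighm-led cells. However, 53.7%, 75.0% and 65.0% of switched cells lay in part 5, against 8.96%, 9.60% and 8.48% of Ighm-led cells. Heavy chain class and part cannot be told apart here. Across plasma-like cells with at least 5000 UMIs (300, 192 and 220 cells), antibody share and member share of all UMIs had a Spearman rho of −0.55, −0.34 and −0.42, as a description of measures that share a denominator and a depth. Against the member share of non-antibody UMIs, rho was −0.07, 0.05 and 0.12.

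The rest of the secretory pathway was read from 10 further lists, plasma-like against B-like, beside the 4.38% of all genes higher and the 69.3% lower. These ratios are on the scale of all UMIs, where the medians over all genes tested were log2 −1.05, −1.14 and −1.05. A ratio below 1 is thus not by itself a lower share of the UMIs outside antibody genes, and ratios on that scale are not given for these lists. Among sensors and transcription factors of the unfolded protein response, 2 of 9 tested genes were higher and 2 lower. Xbp1 had 1258, 1237 and 1120 CPM in plasma-like cells and 53.7, 52.5 and 54.0 CPM in B-like cells, and Ern1, which encodes its activator IRE1, 68.2, 64.3 and 69.5 CPM in plasma-like and 6.08, 7.02 and 6.39 CPM in B-like cells. The proteases that cut ATF6 were lower, Mbtps1 at a median of 0.374-fold and Mbtps2 at 0.216-fold, while Atf6 itself stood at 0.683 and Eif2ak3, which encodes PERK, at 0.473. Of 5 tested targets of ATF4 and CHOP, Asns and Atf5 were higher (11.9- and 11.8-fold) and Ddit4 lower (0.155-fold).

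In the oligosaccharyltransferase, which attaches N-glycans, 5 of 11 genes were higher, with Rpn1 at 4.83-fold and Ddost at 4.40-fold, and Tusc3 was lower at 0.235-fold. Glycan trimming had 1 of 9 higher and 3 lower, with Man1a at 0.268-fold and Pmm2 at 0.299-fold. The signal recognition particle list had 2 of 11 higher, and both encode the receptor at the ER: Srprb at 2.90-fold and Srpr at 2.11-fold. In the COPII coat and cargo receptor list 5 of 17 were higher and 1 lower, with the coat genes Sec24d at 10.8-fold and Sec24b at 0.187-fold. Oxidative folding had 2 of 9 higher, Prdx4 at 11.7-fold and Txndc11 at 5.47-fold, and 2 lower. Other ERAD genes had 3 of 14 higher and 2 lower, with Ube2j1 at 3.64-fold and Selenos at 3.18-fold. Of the listed chaperones that fold proteins outside the ER, 0 of 10 were higher and 9 lower. The farthest, Hspe1 at 0.219-fold and Hspd1 at 0.249-fold, encode mitochondrial chaperones. Among the cytosolic ones Hsph1 stood at 0.278-fold and Hsp90aa1 at 0.295-fold. Cell cycle genes had 1 of 2 tested higher, Mki67 at 10.5-fold.

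Genes outside the list were ranked by the likeness of their pattern to the mean member level, as Pearson r of log2(CPM + 10) over 38 class-by-library points that share libraries and depth, among 9122 eligible genes. Among the 10 most alike were Clptm1l (r = 0.95), Tmem214 (0.93), Fut8 (0.91), Txndc11 and Slc35b1 (0.90 each), Prdx4 and Rpn1 (0.89 each), and Selenos and Yipf2 (0.88 each). Clptm1l averaged 191 CPM in plasma-like cells and 51.4 CPM in B-like cells. Of the members themselves, Ssr4 followed the mean of the other 39 most closely (r = 0.96), then Hsp90b1 and Spcs3 (0.94 each), and Derl2 (0.31) and Ell2 (0.38) least.

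The groups were set against each other in plasma-like cells, in 3 comparisons that share libraries. The members summed to 20871 CPM in MASH-Phe-free, 20538 CPM in MASH and 19785 CPM in Chow, and 1 member of 40 passed a 1.5-fold line with an interval that excluded 1. MASH over Chow had a median member log2 ratio of 0.00, beside −0.12 for all 5532 genes tested. It had 0 members higher, against 2.06% of genes, and 1 lower, against 7.88%. MASH-Phe-free over MASH had a median of 0.04, beside 0.07 for all genes, with 0 members higher against 5.24% and 0 lower against 2.08%. MASH-Phe-free over Chow had 0.01, beside −0.04, with 0 higher against 2.92% and 1 lower against 5.39%. The member lower in both comparisons with Chow was Herpud1. With antibody UMIs left out, the member medians were 0.12, −0.07 and 0.01, beside −0.04, −0.01 and −0.05 for all genes.

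The other members lay between 0.694 and 1.26 in all 3 comparisons. In MASH over Chow, Dnajb9 stood at 77.2 CPM in MASH and 111 CPM in Chow (0.694, 0.618 to 0.779), and Hsp90b1 at 2997 CPM in MASH and 2535 CPM in Chow (1.18, 1.16 to 1.21). After Herpud1 and Dnajb9 the lowest was Derl2 (0.770), and after Hsp90b1 the highest were Creld2 (1.17) and Fkbp11 (1.15). In MASH-Phe-free over MASH the farthest were Hyou1 (0.824), Creld2 (0.832) and Pdia4 (0.875) below, and Ssr2 (1.20), Derl2 (1.15) and Herpud1 (1.14) above. In MASH-Phe-free over Chow, Dnajb9 (0.699) and Hyou1 (0.751) followed Herpud1 below, and Ssr2 (1.26), Hsp90b1 (1.23) and Spcs1 (1.22) led above. In part 2 of the plasma-like cells Dnajb9 stood at 71.7 CPM in MASH-Phe-free, 73.3 CPM in MASH and 142 CPM in Chow. In part 5 it stood at 131 CPM in MASH-Phe-free, 136 CPM in MASH and 137 CPM in Chow, so the libraries did not differ there beyond their intervals. Part 6 was alike, at 68.0 CPM in MASH-Phe-free, 66.0 CPM in MASH and 69.2 CPM in Chow. Part 1 had 49.3, 49.4 and 65.5 CPM, with intervals that overlapped. Part 4 had 35.8, 56.0 and 84.7 CPM, where the intervals of MASH-Phe-free and Chow did not overlap. Part 3 held only 9, 3 and 0 Dnajb9 UMIs. With the parts weighted alike, Dnajb9 stood at 0.733 in MASH over Chow and at 0.745 in MASH-Phe-free over Chow.

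**Figure D4:**
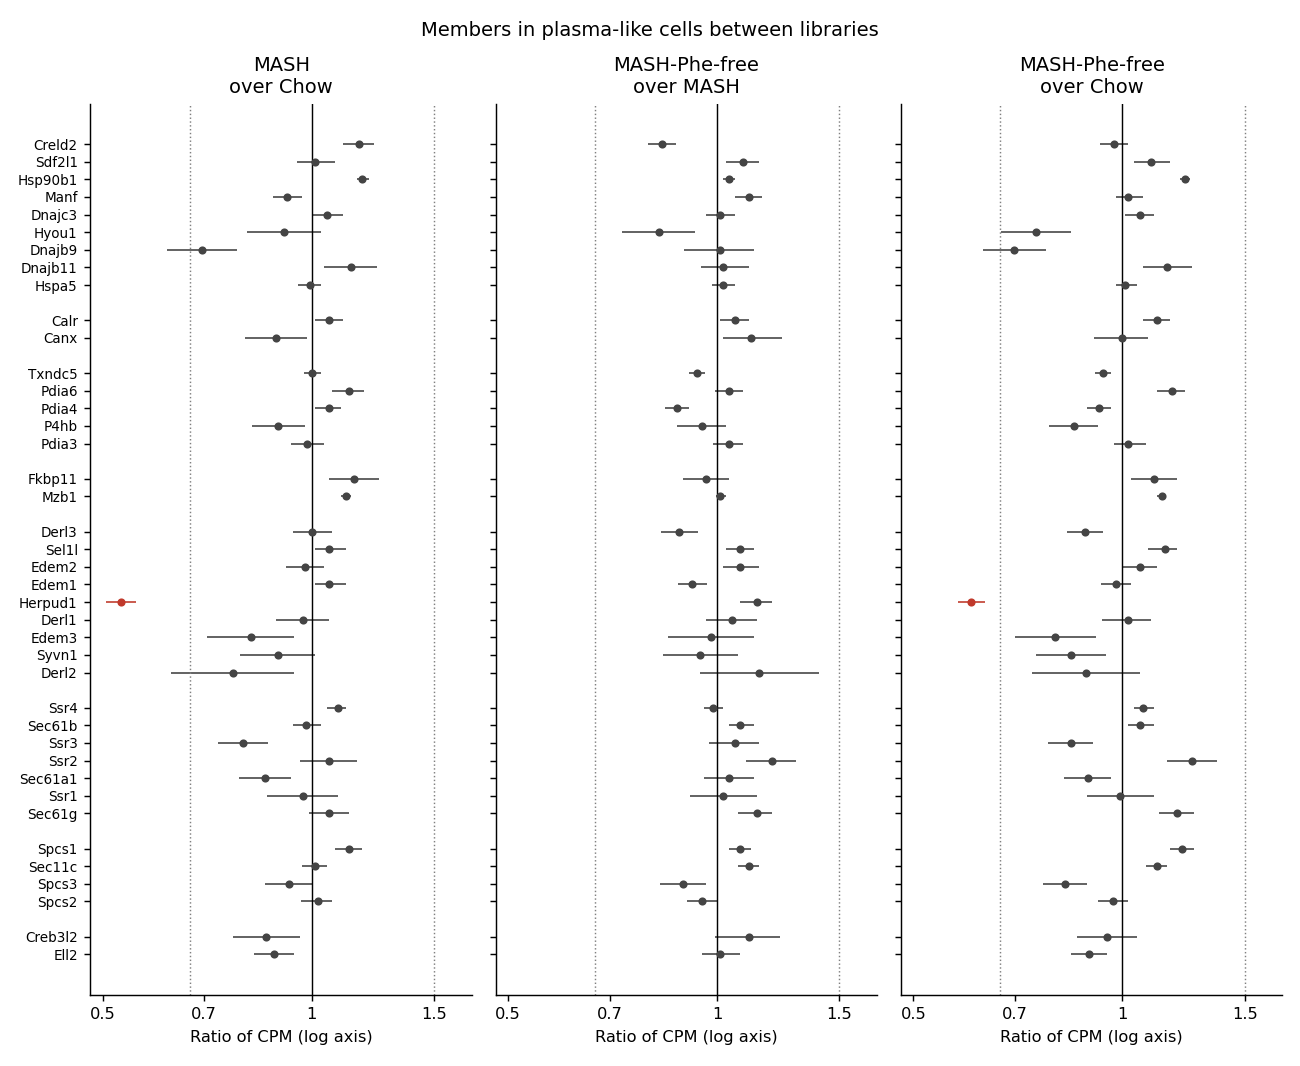
Ratio of CPM in plasma-like cells between libraries for each member (rows, in the order of the role groups), 1 panel per comparison, on a log axis with exact 95% intervals of counting error. Dotted lines mark 1.5-fold in each direction; Herpud1, in red, is the only member past them, at 0.531 in MASH over Chow and 0.606 in MASH-Phe-free over Chow.

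Herpud1 had 401 CPM (3620 UMIs) in plasma-like cells of MASH-Phe-free, 351 CPM (2245 UMIs) in MASH and 661 CPM (4415 UMIs) in Chow. The ratio was 0.606 (0.580 to 0.634) for MASH-Phe-free over Chow and 0.531 (0.505 to 0.559) for MASH over Chow. Chow was the highest library, and the intervals of the 3 libraries did not overlap. A Herpud1 UMI was found in 83.5% of plasma-like cells in MASH-Phe-free, 77.9% in MASH and 88.5% in Chow, and the 10 cells with most held 14.4% of its UMIs in MASH-Phe-free, 24.6% in MASH and 16.3% in Chow. Among cells with at least 5000 UMIs the median cell stood at 338 CPM in MASH-Phe-free, 262 CPM in MASH and 577 CPM in Chow. Chow was highest in 5 of the 6 parts. Part 2, led by Apoe and the haemoglobin genes Hbb-bs and Hbb-bt, held 62 of 387 plasma-like cells in MASH-Phe-free, 57 of 262 (21.8%) in MASH and 96 of 304 (31.6%) in Chow, and part 6 made up 23.0%, 18.7% and 13.5%. With the parts given equal weight in both libraries, an alternative chosen after seeing the data, Herpud1 stood at 0.634 in MASH-Phe-free over Chow and at 0.535 in MASH over Chow. Part 2 had 509 CPM in MASH-Phe-free, 435 CPM in MASH and 777 CPM in Chow, and part 6 had 417 CPM in MASH-Phe-free, 415 CPM in MASH and 731 CPM in Chow. With plasma-like cells chosen by per-cell marker gates, which took in 597, 483 and 606 cells, the ratio of MASH-Phe-free over Chow was 0.729 and no longer passed 1.5-fold. The exception among the parts was part 3, led by neutrophil genes, with 704 CPM in MASH-Phe-free (13 cells), 92.9 CPM in MASH (10 cells) and 475 CPM in Chow (10 cells).

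In B-like cells Herpud1 stood at 80.1 CPM in MASH-Phe-free, 79.9 CPM in MASH and 87.3 CPM in Chow, and in T-like cells at 53.7 CPM in MASH-Phe-free, 45.2 CPM in MASH and 54.8 CPM in Chow. Macrophage-like cells had 66.3 CPM in MASH-Phe-free, 50.7 CPM in MASH and 91.6 CPM in Chow, a ratio of 0.554 (0.475 to 0.645) for MASH over Chow. The ratio in macrophage-like cells was thus near that in plasma-like cells. Chow was also highest in NK-like cells, with 92.6 CPM in MASH-Phe-free, 88.0 CPM in MASH and 120 CPM in Chow, a ratio of 0.736 (0.645 to 0.840) for MASH over Chow. The same ratio was 0.755 (0.681 to 0.837) in monocyte-like cells, 0.733 (0.615 to 0.874) in mature neutrophil-like cells and 0.877, with an interval below 1, in conventional dendritic-like cells. Differences between classes in this ratio were not tested. In plasma-like cells other RNAs also differed between the libraries: 4 haemoglobin genes summed to 48.7 CPM in MASH-Phe-free, 265 CPM in MASH and 652 CPM in Chow, and 6 pancreatic enzyme genes were all at 0 in MASH-Phe-free and MASH and summed to 7.93 CPM in Chow. The 9 neutrophil markers summed to 97.6 CPM in MASH-Phe-free, 10.6 CPM in MASH and 46.0 CPM in Chow, with 0, 2 and 2 of them at 0. The 8 monocyte markers summed to 1736 CPM in MASH-Phe-free, 2221 CPM in MASH and 1290 CPM in Chow. A list of 11 early response genes, added after the data were seen, summed to 799 CPM in MASH-Phe-free, 1102 CPM in MASH and 1139 CPM in Chow. Their part in the Herpud1 values was not tested. B-cell markers summed to 1201, 1243 and 1387 CPM in plasma-like cells, against 12206, 12509 and 11857 CPM in B-like cells.

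**Figure D5:**
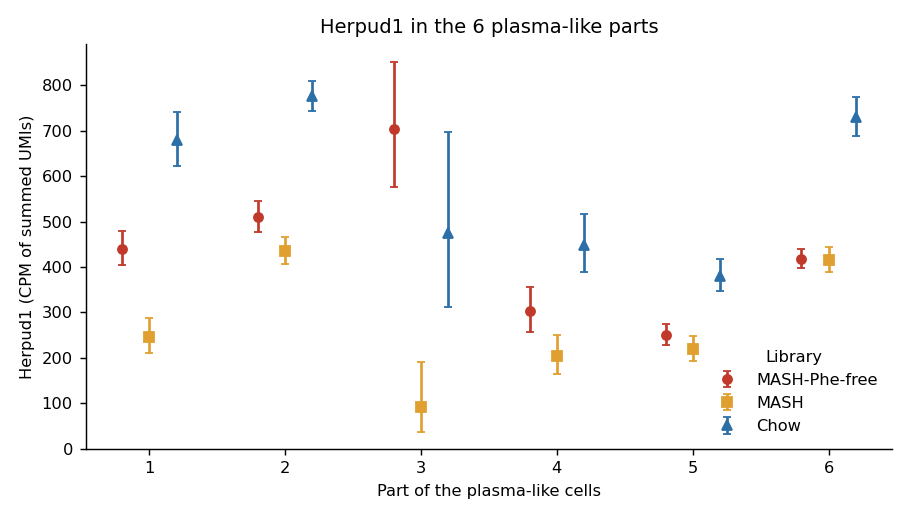
Herpud1 level (CPM of summed UMIs) in each of the 6 parts of the plasma-like cells, per library, with exact Poisson 95% intervals. Chow lies above MASH and MASH-Phe-free in every part except part 3, which holds 33 cells.

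Among the other lists in plasma-like cells, the sensors and transcription factors, the oligosaccharyltransferase, glycan trimming, signal recognition particle, COPII, oxidative folding and other ERAD lists had 0 genes past 1.5-fold in each of the 3 comparisons. Xbp1, whose plasma-like values are given above, was among them. Of the tested targets of ATF4 and CHOP 1 was higher and 1 lower in each comparison. Psat1, a serine synthesis enzyme, had 18.8 CPM in MASH-Phe-free, 8.91 CPM in MASH and 9.28 CPM in Chow. Chac1 had 11.3 CPM in MASH-Phe-free, 17.0 CPM in MASH and 9.58 CPM in Chow. Ddit4 was lowest in MASH, with 15.3 CPM in MASH-Phe-free, 13.6 CPM in MASH and 26.9 CPM in Chow. Of the chaperones outside the ER, Dnaja1 and Dnajb1 were lower in MASH than in Chow, at 0.643 and 0.547. All 3 tested cell cycle genes were lower in MASH than in Chow and higher in MASH-Phe-free than in MASH. Top2a had 30.5 CPM in MASH-Phe-free, 11.9 CPM in MASH and 37.4 CPM in Chow. Part 5 made up 13.7% of plasma-like cells in MASH-Phe-free, 12.6% in MASH and 12.2% in Chow.

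In B-like cells the median member log2 ratio was −0.02 for MASH over Chow, 0.00 for MASH-Phe-free over MASH and −0.03 for MASH-Phe-free over Chow, beside −0.03, −0.02 and −0.05 for all genes tested. No member of the 37 tested passed 1.5-fold in either direction in any of the 3. Of all genes 0.786% were higher and 0.727% lower in MASH over Chow, 0.271% and 0.377% in MASH-Phe-free over MASH, and 0.541% and 0.812% in MASH-Phe-free over Chow, so the members' count is near the background.

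Larger ratios were found in other classes, among them classes where the members are low or cells are few. Sdf2l1 stood at 84.3 CPM in MASH-Phe-free, 131 CPM in MASH and 83.3 CPM in Chow in monocyte-like cells (927, 605 and 623 cells). It was the 1 of 36 tested members higher in MASH over Chow there, against 2.27% of all genes. In macrophage-like cells Creb3l2 had 54.8 CPM in MASH-Phe-free, 34.1 CPM in MASH and 51.3 CPM in Chow, and Sdf2l1 142, 185 and 122 CPM. In mature neutrophil-like cells 11 of 28 tested members were at least 1.5-fold higher in MASH-Phe-free than in MASH, against 11.3% of all genes. In platelet- and megakaryocyte-like cells (132, 128 and 85 cells) 10 of 38 were, against 3.58%. In MASH over Chow 3 of 26 were lower in mature neutrophil-like cells (12.2% of genes) and 8 of 38 in the platelet class (6.71%). MASH-Phe-free over Chow had 3 of 29 higher (3.80%) and 0 lower (5.19%) in the former. The latter had 3 of 38 higher (4.45%) and 2 lower (6.53%). In immature neutrophil-like cells (787, 94 and 453 cells) 6 of 34 were lower in MASH over Chow, against 4.91%. There 3 of 33 were lower in MASH-Phe-free over Chow, against 1.94%. Txndc5 had 346 CPM in MASH-Phe-free, 79.8 CPM in MASH and 159 CPM in Chow in the platelet class. Derl3 had 33.5 CPM (18 UMIs) in MASH-Phe-free, 0 UMIs in MASH and 24.1 CPM in Chow, so that MASH-Phe-free was at least 5.88-fold higher than MASH when MASH is put at a floor of 3 UMIs, 5.70 CPM. With the counting error of both libraries the exact lower limit of that ratio was 4.31. Antibody UMIs in the platelet class and in mature neutrophil-like cells were highest in MASH-Phe-free and lowest in MASH. They made up 7.66% of UMIs in MASH-Phe-free, 0.956% in MASH and 4.65% in Chow in the platelet class. In mature neutrophil-like cells they made up 0.461% in MASH-Phe-free, 0.0497% in MASH and 0.0722% in Chow. Their part in these ratios was not tested. Edem3 in the platelet class was 0.490 in MASH-Phe-free over MASH and 2.43 in MASH over Chow, with intervals that include 1, and Edem1 there 0.535 in MASH-Phe-free over Chow. Mzb1 was among the members farthest from 1 in 4 other classes. It had 6.70 CPM in MASH-Phe-free, 16.7 CPM in MASH and 8.35 CPM in Chow in NK-like cells, and 15.7 CPM in MASH-Phe-free, 3.22 CPM in MASH and 18.1 CPM in Chow in immature neutrophil-like cells. MASH-Phe-free was the highest library in mature neutrophil-like cells, with 23.0 CPM against 6.23 CPM in MASH and 5.60 CPM in Chow, and in conventional dendritic-like cells, with 31.1 CPM against 22.2 CPM in MASH and 13.2 CPM in Chow. Antibody UMIs made up 0.756% in MASH-Phe-free, 0.353% in MASH and 0.102% in Chow in conventional dendritic-like cells, 0.327%, 0.0208% and 0.292% in immature neutrophil-like cells, and 0.0436%, 0.0386% and 0.0962% in NK-like cells. In the first of these and in mature neutrophil-like cells MASH-Phe-free was the highest library for antibody UMIs as for Mzb1, and in immature neutrophil-like cells MASH was the lowest for both; their part in the Mzb1 values was not tested. Fkbp11 in early erythroid-like cells had 9.50 CPM in MASH-Phe-free and 18.1 CPM in Chow.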

How the data were processed

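Spleen cells were counted by 5′ single-cell RNA sequencing in 3 libraries (MASH-Phe-free, MASH, Chow). The authors deposited whole UMI counts per gene and barcode, with gene identifiers, symbols and barcodes as the other columns, per the file headers. Cell Ranger 9.0.1, Seurat 5.3.0 and GRCm39/mm39 are named, per the submitters' processing notes. No annotation release is named.

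The members and lists were chosen with earlier results of these data known. Barcodes were kept with at least 300 genes, 500 UMIs and at most 10% mitochondrial UMIs. Scrublet removed 304, 318 and 315 barcodes (1.92%, 1.80% and 1.97%), which left 15560, 17333 and 15669 cells. Clustering (scanpy 1.11.5, 2000 variable genes without members or antibody genes, 30 components, 15 neighbours, Leiden resolution 1.0) was not integrated over libraries. A cluster was named where the 5 leading markers of a list averaged a log2 fold of at least 1.5, and 860, 1626 and 1269 cells stayed unnamed, among them Chow clusters led by pancreatic enzymes.

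UMIs were summed per class and library and scaled to CPM, with exact Poisson 95% intervals and exact conditional intervals of ratios. A gene counts as tested where the mean of its 2 CPM values reached 10; 10 CPM were added to both values before log2 ratios. Calls needed 2-fold between classes or 1.5-fold between libraries and an interval that excluded 1. The 1.5-fold calls were run on simulated Poisson counts, which have the spread that the intervals assume. That run cannot show how the calls behave where a few cells hold many UMIs of a gene. The 2-fold calls were not simulated. All members were named by role: up to 4 per role farthest from 1 and those nearest to 1 between classes, and between libraries every member past 1.5-fold, 3 per direction otherwise, and 2 per direction in other classes of at least 50 cells. Other lists were given by counts with the 2 genes farthest from 1, and genes alike in pattern by the 10 highest r, of which 1 is not reported here. Ddit3, of the list of sensors and transcription factors, was not used. Promoter letters came from RefSeq (GRCm38.p6), a build other than that of the counts. Numpy 2.4.6, scipy 1.17.1 and pandas 2.3.3 were used. Alternatives are given with their effect in the closing section.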

Additional observations from a re-analysis of the deposited data

How the results depend on the processing

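The 13 results were recomputed under those of 10 alternatives, and of 3 more chosen after seeing the data, that applied to each, 11 to 13 settings a result, which gave 155 values; 135 stayed within 1.5 times for counts or within the counting error of a typical member for medians, and 20 moved. The count of 34 members at least 2-fold higher in plasma-like cells ranged between 29 (per-cell marker gates) and 38 (antibody UMIs left out). For MASH-Phe-free, MASH and Chow, the medians of plasma-like over B-like (1.87, 1.92 and 1.96) became 3.06, 3.23 and 3.16 with antibody UMIs left out, 1.55, 1.44 and 1.41 with marker gates, which took in 597, 483 and 606 plasma-like cells, and 2.01, 2.08 and 2.06 with an offset of 1 CPM, and 1.74 in MASH-Phe-free without cells that had at least 3 of 10 cell cycle genes. Between libraries in plasma-like cells, the median became 0.12 for MASH over Chow and −0.07 for MASH-Phe-free over MASH with antibody UMIs left out. With marker gates it became 0.13 for MASH-Phe-free over MASH and 0.14 for MASH-Phe-free over Chow, and without cycling cells −0.10 and −0.14. With each cell weighted alike it became −0.08 for MASH-Phe-free over MASH. The direction of these small medians thus depends on the setting, and the cause was not tested. Members past 1.5-fold numbered 2 for MASH over Chow with each cell weighted alike, and for MASH-Phe-free over Chow 0 with marker gates and 2 without cycling cells. The Herpud1 ratio ranged between 0.446 and 0.612 for MASH over Chow and between 0.591 and 0.729 for MASH-Phe-free over Chow. The other settings, among them leaving out shared barcodes, parts 3 and 4 of the plasma-like cells, or doublet removal, left the counts of members past 1.5-fold as they were.

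No paired analysis was possible because each group has 1 library. Depth limits the small classes: plasmacytoid dendritic-like, basophil and mast-like, late erythroid-like, granulocyte precursor-like and stroma-like cells had under 50 cells in at least 1 library. Differences between animals cannot be told apart from differences between groups.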
